A study of Mus musculus with 18 samples.

Results

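Immediate early genes of the mouse cochlear nucleus, chosen by gene name, though with earlier results of these data known, were represented by 12 probe sets of 10 genes among the 22690 probe sets of the Affymetrix mouse 430A array. They are Fos, Fosb, Jun (2 probe sets), Junb, Egr1, Ier2, Nr4a1, Arc, Dusp1 and Btg2 (2 probe sets), and all 12 were found. A probe set is a group of short oligonucleotides that together report 1 transcript, and its signal is a scaled intensity with no fixed unit.

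Immediate early genes are transcribed within minutes of a stimulus, without new protein synthesis, when calcium entry and MAP kinase signalling activate factors already bound at their promoters, among them CREB and SRF. In neurons their RNA rises with synaptic activity and is short-lived, so that its level can follow recent activity. Activity itself was not measured on these arrays. Some of the products are transcription factors that pass the signal to later genes, others act at synapses or switch the signal off. The cochlear nucleus is the first brainstem station of hearing, and mice begin to hear airborne sound in the postnatal weeks sampled here.

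Cochlear nuclei of C57BL/6J mice were sampled at postnatal day 7 (P7, 3 arrays), day 14 (P14, 2 arrays) and day 21 (P21, 3 arrays), with nuclei of 5 pups pooled for each array. The labels name no treatment, and age is the only difference between groups that they give. The labels do not say that each pool came from other animals, so p-values measure the spread between these pools. The whole tissue was used, and in it a larger share of cells with a transcript and more transcript per cell cannot be told apart. The deposited table pairs no probe set with a gene, so the tissue was not checked against marker genes, and the gene names of the members are those given with the list of members.

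The arrays were scaled to the same level, but their median signals differed somewhat with age. Medians were 108.8 to 110.5 at P7, 98.7 and 98.8 at P14, and 102.55 to 108.7 at P21. The P14 arrays also had the lowest Gapdh ratios of the next sentence, 0.782 and 0.791. The ratio of 3′ to 5′ signal, a sign of RNA integrity, was 1.01 to 1.17 for the actin control and 0.782 to 0.904 for the Gapdh control. The 5′ signal of the 18S ribosomal RNA control differed far more, both within and between ages. It was 155 to 3530 on the P7 arrays, 43.6 and 38.6 on the P14 arrays and 944 to 6137 on the P21 arrays. The P14 arrays lay below all others, and the P7 and P21 ranges overlapped. The part of this control in the results was not tested. The bacterial poly-A control with the highest signal also differed between arrays, and partly with age. It was dap on 2 P7 arrays and lys on the third, dap and lys on the P14 arrays, and lys, phe and trpn on the P21 arrays. P21 replicate 1 had the weakest such control, 1122 against 4572 to 9580 on the other 7 arrays. The other bacterial controls on an array, each a mean of 3 probe sets, reached at most 24.6, which serves as a measure of signal with little or no transcript.

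Upstream sequence was taken from RefSeq (GRCm38.p6) for 7 of the 10 genes, those other than Egr1, Ier2 and Arc. The 250 bases before the annotated start are shown for 4 genes. Fos and Dusp1 were higher at P21 than at P7, and for Nr4a1 and Btg2 no difference passed the test. The difference between these genes was not itself tested. Capitals mark the cAMP response element TGACGTCA, the binding letters of CREB, or its core TGACG on either strand, which reads CGTCA when it lies on the other strand.
Fos, chr12:85473640-85473889, plus strand: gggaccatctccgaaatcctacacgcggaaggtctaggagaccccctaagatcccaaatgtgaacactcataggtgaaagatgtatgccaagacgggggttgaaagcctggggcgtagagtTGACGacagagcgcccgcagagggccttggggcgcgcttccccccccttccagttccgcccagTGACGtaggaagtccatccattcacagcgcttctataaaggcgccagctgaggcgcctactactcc
Dusp1, chr17:26508473-26508722, minus strand: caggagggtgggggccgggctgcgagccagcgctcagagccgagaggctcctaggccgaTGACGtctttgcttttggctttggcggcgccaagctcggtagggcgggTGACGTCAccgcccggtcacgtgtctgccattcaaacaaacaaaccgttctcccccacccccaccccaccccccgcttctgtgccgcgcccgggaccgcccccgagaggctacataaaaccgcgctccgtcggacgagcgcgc
Nr4a1, chr15:101266596-101266845, plus strand: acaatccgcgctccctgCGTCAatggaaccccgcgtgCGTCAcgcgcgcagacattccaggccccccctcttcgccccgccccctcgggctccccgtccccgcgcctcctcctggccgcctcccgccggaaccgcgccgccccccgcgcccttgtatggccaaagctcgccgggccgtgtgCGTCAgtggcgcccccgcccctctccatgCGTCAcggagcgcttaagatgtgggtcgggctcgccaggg
Btg2, chr1:134079156-134079405, minus strand: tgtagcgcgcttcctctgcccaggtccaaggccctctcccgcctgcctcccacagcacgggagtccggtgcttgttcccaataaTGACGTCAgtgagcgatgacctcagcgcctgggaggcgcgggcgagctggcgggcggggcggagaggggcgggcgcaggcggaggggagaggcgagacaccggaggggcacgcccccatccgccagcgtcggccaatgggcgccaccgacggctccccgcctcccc

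The core was found upstream of 6 of the 7 genes, all but Jun, and 17.8% of the 32851 RefSeq promoters held it in the same window. The core nearest to the start lay 66 to 62 bases before it in Fos, 60 to 56 in Fosb, 106 to 102 in Junb and 40 to 36 in Nr4a1. Nr4a1 held 4 cores, all on the other strand. The full element was found in Dusp1 (143 to 136 bases before the start) and Btg2 (166 to 159), and in 1.55% of promoters. In it, the core lies on both strands. The pattern TGANTCA, with N any base, includes the AP-1 site, to which Fos and Jun proteins bind as dimers. It was found in 0 of the 7 windows and in 6.75% of all promoters. Since any middle base was counted, that share is an upper limit for the AP-1 site itself. The CArG box, to which SRF binds, was found in 0 of the 7 windows and in 1.47% of all promoters. Only exact matches within these 250 bases were counted, so sites farther upstream or with other letters would be missed. Egr1, Ier2 and Arc were not searched. The genes cannot be said to lack such sites. These matches are letters in a window, not measured binding, and whether they go with the changes in signal was not tested.

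The comparison across ages asked how these genes differed before, around and after the start of hearing. Fos, Egr1 and Arc were higher at P14 than at P7, and these 3 and Dusp1 were higher at P21 than at P7. From P7 to P21 Arc rose 3.29-fold, Egr1 2.95-fold, Fos 2.36-fold and Dusp1 1.87-fold. Arc and Egr1 have no settled order, since Egr1 had the larger log2 change in 3 of 18 alternative settings (1.38 against 1.29 with a larger pseudocount, 1.52 against 1.49 without P7 replicate 1, and 1.66 against 1.62 with the poly-A control as block). Egr1 alone passed the test again from P14 to P21. In this fit no member passed downward, and Jun, Junb, Ier2, Nr4a1 and Btg2 passed in none of these comparisons. Folds are on the scale of log2(signal + 12.5) and understate the change of dim probe sets.

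Of the 12 probe sets, 11 had a mean signal of at least 50.02 and were tested, all but that of Fosb. The tests come from limma, a linear model fitted to all 15296 probe sets above that level, with Benjamini-Hochberg adjustment over all of them and a threshold of 0.05. From P7 to P14, 3 of 11 members passed, all upward, where 12.9% of all probe sets passed upward and 16.7% downward. This balance depends on the scaling. The fit had 1967 probe sets upward and 2557 downward, against 2059 and 2058 after quantile normalization, where 4 of 11 members passed, all upward. From P7 to P21, 4 of 11 passed, all upward, where 17.1% passed upward and 21.5% downward. From P14 to P21, 1 of 11 passed, upward, where 0.843% passed upward and 1.2% downward. In either direction the shares were 29.6% from P7 to P14, 38.6% from P7 to P21 and 2.05% from P14 to P21, so that 4 of 11 from P7 to P21 lay near the background of an array on which much changed with age. The median log2 change of the 11 was 0.28 from P7 to P21 against -0.02 over all probe sets, 0.20 against -0.07 from P7 to P14, and 0.16 against 0.03 from P14 to P21. The comparisons share arrays and are not independent.

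**Figure D1:**
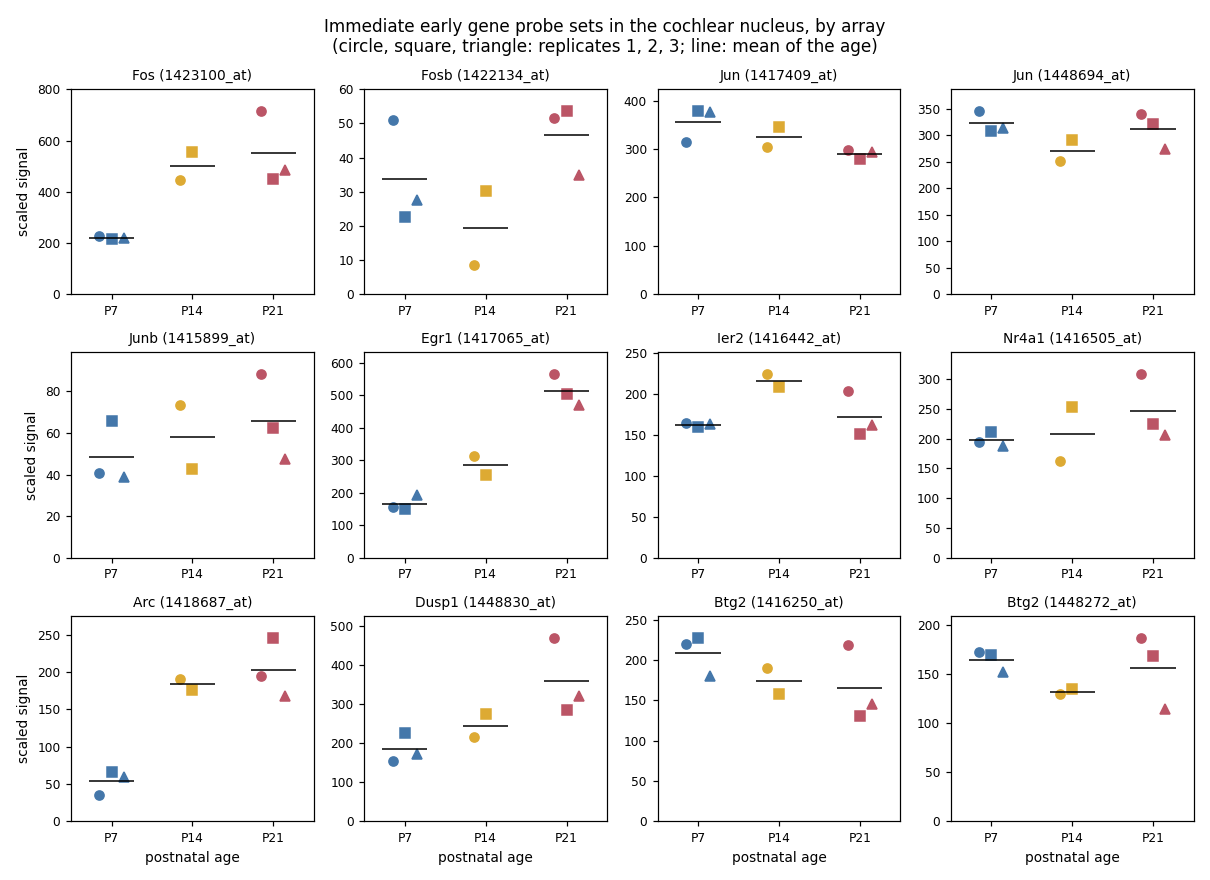
Scaled signal (vertical axis, from 0) of each of the 12 probe sets on each of the 8 arrays at P7, P14 and P21. Symbols are replicates 1, 2 and 3, and lines are means. Fos, Egr1 and Arc lie higher on every P14 and P21 array than on any P7 array, while the Jun and Btg2 panels show no such step.

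The Fos and Jun families form the AP-1 transcription factors, in which a Fos protein pairs with a Jun protein. Fos (1423100_at) had signals of 227, 215 and 220.1 on the 3 P7 arrays, 446 and 556 on the P14 arrays and 716, 448 and 484 on the P21 arrays. Every later array lay above every P7 array, the P7 arrays lay close together and P21 replicate 1 was the highest. The mean signal was 221 ± 6.42 (SD, n = 3) at P7, 501 ± 77.6 (SD, n = 2) at P14 and 549 ± 146 (SD, n = 3) at P21. The log2 change was 1.13 (SE 0.19, limma adjusted p = 0.00154) from P7 to P14 and 1.24 (SE 0.17, limma adjusted p = 0.000242) from P7 to P21. From P14 to P21 it was 0.11 (95% confidence interval -0.30 to 0.52, limma adjusted p = 0.797), and the arrays of those ages overlapped.

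Fosb (1422134_at), a relative of Fos that also pairs with Jun proteins, was dim on every array. Its signals were 50.9, 22.7 and 27.6 at P7, 8.50 and 30.1 at P14, and 51.6, 53.7 and 34.8 at P21. On P14 replicate 1 it lay below the highest of that array's bacterial controls with little transcript, 11.1. On P7 replicate 2 it lay above that array's own 7.1, though below the 24.6 reached on P21 replicate 3. When every probe set was tested without a limit on signal, the Fosb log2 change was -0.58 (SE 0.36, limma adjusted p = 0.312) from P7 to P14 and 0.97 (SE 0.36, limma adjusted p = 0.233) from P14 to P21. The latter had an unadjusted p of 0.0229, and all P21 arrays lay above both P14 arrays. After adjustment no change of Fosb passed.

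Jun, the partner of Fos, was reported by a pair of probe sets, and neither passed the test upward. The first (1417409_at) had signals of 315, 379 and 377 at P7, 305 and 345 at P14 and 297, 279 and 294 at P21. All P21 arrays lay below all P7 and all P14 arrays, by a small margin. The log2 change from P7 to P21 was -0.28 (SE 0.11) with a limma adjusted p of 0.0688, which misses the threshold. It passed without P7 replicate 1 (-0.37, limma adjusted p = 0.0271) and when arrays were weighted by quality (-0.33, limma adjusted p = 0.0285).

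The second Jun probe set (1448694_at) had signals of 346, 309 and 314 at P7, 252 and 291 at P14 and 341, 322 and 273 at P21. Here the P14 arrays were lower than the P7 arrays, and the P21 arrays overlapped both. Its log2 change from P7 to P21 was -0.05 (95% confidence interval -0.32 to 0.21, limma adjusted p = 0.753). Over the 8 arrays the log2 signals of the pair correlated at r = 0.051. Neither probe set passed a comparison in the main fit. With so little change to correlate, this r cannot show whether their courses differ. The upper confidence limits of the P7 to P21 change, -0.04 and 0.21, lie far below the 1.24 measured for Fos.

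Junb (1415899_at), a Jun relative often induced together with Fos, was also dim, with signals of 40.8, 66.0 and 39.0 at P7, 73.6 and 42.5 at P14, and 88.2, 62.3 and 47.4 at P21. Arrays of all ages overlapped. The log2 change from P7 to P21 was 0.36 (95% confidence interval -0.24 to 0.95, limma adjusted p = 0.32). Its spread was wide, with a residual SD of 0.38 on the log2 scale, and 93.0% of probe sets tested had a smaller one.

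Egr1 (1417065_at), a zinc finger transcription factor widely used to map neuronal activity, rose in both intervals. Its signals were 155, 150.1 and 193 at P7, 315 and 255 at P14, and 565, 504 and 469 at P21. The 3 ages did not overlap at all and stood in order of age. The mean went from 166 ± 23.7 (SD, n = 3) through 285 ± 42.1 (SD, n = 2) to 513 ± 48.2 (SD, n = 3). The log2 change was 0.74 (SE 0.15, limma adjusted p = 0.0049) from P7 to P14, 0.82 (SE 0.15, limma adjusted p = 0.029) from P14 to P21 and 1.56 (SE 0.13, limma adjusted p = 1.63e-05) over the whole period.

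The steps of Egr1 depend on single arrays more than its whole change does. The P7 to P14 change did not pass without P14 replicate 1 (0.59, limma adjusted p = 0.0626). The P14 to P21 change did not pass in 8 of 18 alternative settings, with adjusted p between 0.0255 and 0.236 and log2 changes between 0.68 and 0.97. Those 8 leave out P14 replicate 1 (0.97, adjusted p = 0.103), P14 replicate 2 (0.68, 0.236), P21 replicate 1 (0.75, 0.0578), P21 replicate 2 (0.83, 0.0698) or P21 replicate 3 (0.88, 0.0534), or use no limit on signal (0.82, 0.0507), no trend (0.82, 0.055) or a block for each array's poly-A control (0.93, 0.231), which leaves 1 array to stand for P21.

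Nr4a1 (1416505_at), an orphan nuclear receptor of the early response, had signals of 195, 212 and 189 at P7, 163 and 253 at P14, and 308, 225 and 207 at P21. The P14 arrays lay on either side of all P7 arrays, and P21 overlapped both. Its log2 change from P7 to P21 was 0.28 (95% confidence interval -0.13 to 0.68, limma adjusted p = 0.258). The upstream window of Nr4a1, printed above, held more cores of the cAMP response element than any of the other 6 windows.

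Ier2 (1416442_at), which encodes a small nuclear protein of the early response, was highest at P14. Its signals were 164, 159.8 and 163 at P7, 223 and 207 at P14, and 204, 150.9 and 161 at P21. Both P14 arrays stood above all others. The log2 change was 0.38 (SE 0.15, limma adjusted p = 0.0746) from P7 to P14 and -0.32 (SE 0.15, limma adjusted p = 0.271) from P14 to P21, and neither passed. The first of these passed after quantile normalization (0.48, limma adjusted p = 0.0368), with array quality weights (0.39, limma adjusted p = 0.0253) and without P21 replicate 1 (0.38, limma adjusted p = 0.0416).

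**Figure D2:**
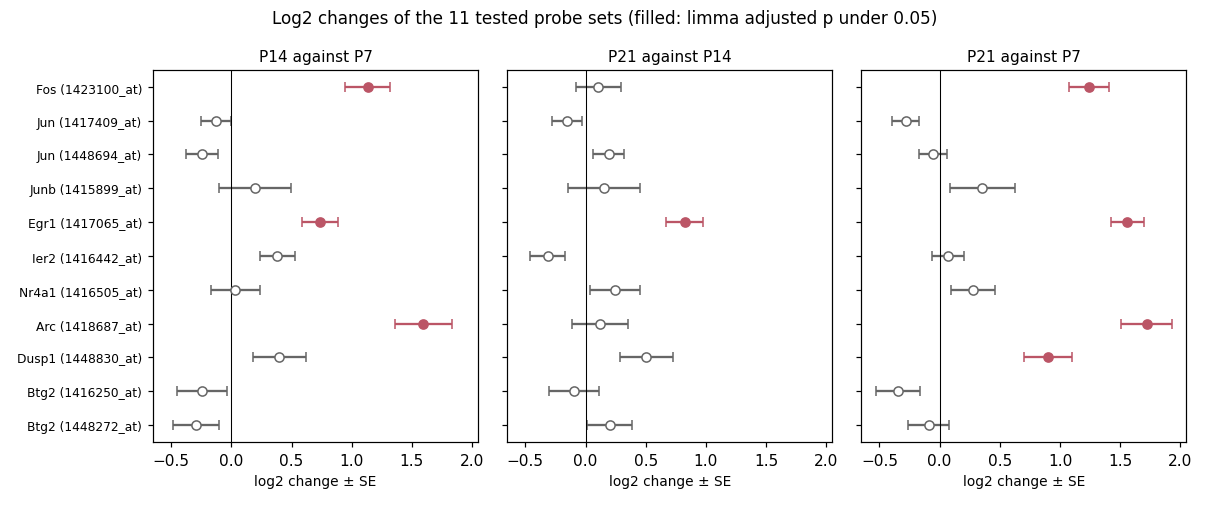
Log2 change (horizontal axis) with its SE for the 11 tested probe sets from P7 to P14, from P14 to P21 and from P7 to P21. Filled points have a limma adjusted p under 0.05: Arc, Fos and Egr1 in the first panel, Egr1 in the second, and Arc, Egr1, Fos and Dusp1 in the third.

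Arc (1418687_at), the synaptic effector of the group, encodes a protein that acts in the removal of AMPA receptors from synapses, and its RNA travels into dendrites. Its signals were 34.8, 66.6 and 60.1 at P7, 190.3 and 177 at P14, and 195, 246 and 168 at P21. All later arrays were above all P7 arrays by a wide gap, and P14 and P21 overlapped. The mean went from 53.8 ± 16.8 (SD, n = 3) to 183 ± 9.69 (SD, n = 2) and 203 ± 39.3 (SD, n = 3). The log2 change was 1.60 (SE 0.23, limma adjusted p = 0.00082) from P7 to P14 and 1.72 (SE 0.21, limma adjusted p = 0.000134) from P7 to P21, and 0.961% of all probe sets tested rose by more from P7 to P21. From P14 to P21 the change was 0.12 (95% confidence interval -0.40 to 0.64, limma adjusted p = 0.816). The size depends on the pseudocount, since the P7 signals are low, and the P7 to P21 change ran from 1.29 to 1.86 over all 18 settings while it passed in each.

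The last genes act against signalling and growth. Dusp1 (1448830_at) encodes a phosphatase that switches off MAP kinases, as a feedback on the pathway that induces it. Its signals were 156, 226 and 172 at P7, 215 and 277 at P14, and 470.0, 286 and 322 at P21. P21 lay above both earlier ages, and P14 overlapped P7. The mean went from 185 ± 36.5 (SD, n = 3) through 246 ± 43.4 (SD, n = 2) to 359 ± 97.4 (SD, n = 3). The log2 change from P7 to P21 was 0.90 (SE 0.20, limma adjusted p = 0.0048). The steps of 0.40 (SE 0.22, limma adjusted p = 0.205) to P14 and 0.50 (SE 0.22, limma adjusted p = 0.244) from P14 did not pass.

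Btg2, which encodes an antiproliferative cofactor that brings the deadenylase complex to messenger RNAs, was reported by a pair of probe sets. The first (1416250_at) had signals of 219.7, 227 and 180.0 at P7, 190.0 and 158 at P14, and 219.0, 131 and 145 at P21. The second (1448272_at) had 173, 169.5 and 152 at P7, 129.7 and 135 at P14, and 187, 169 and 114 at P21. In both, P21 replicate 1 was the highest P21 array and P21 overlapped P7. The log2 changes from P7 to P21 were -0.34 (95% confidence interval -0.75 to 0.07, limma adjusted p = 0.169) and -0.09 (95% confidence interval -0.47 to 0.28, limma adjusted p = 0.702). The pair correlated at r = 0.517 over the 8 arrays.

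**Figure D3:**
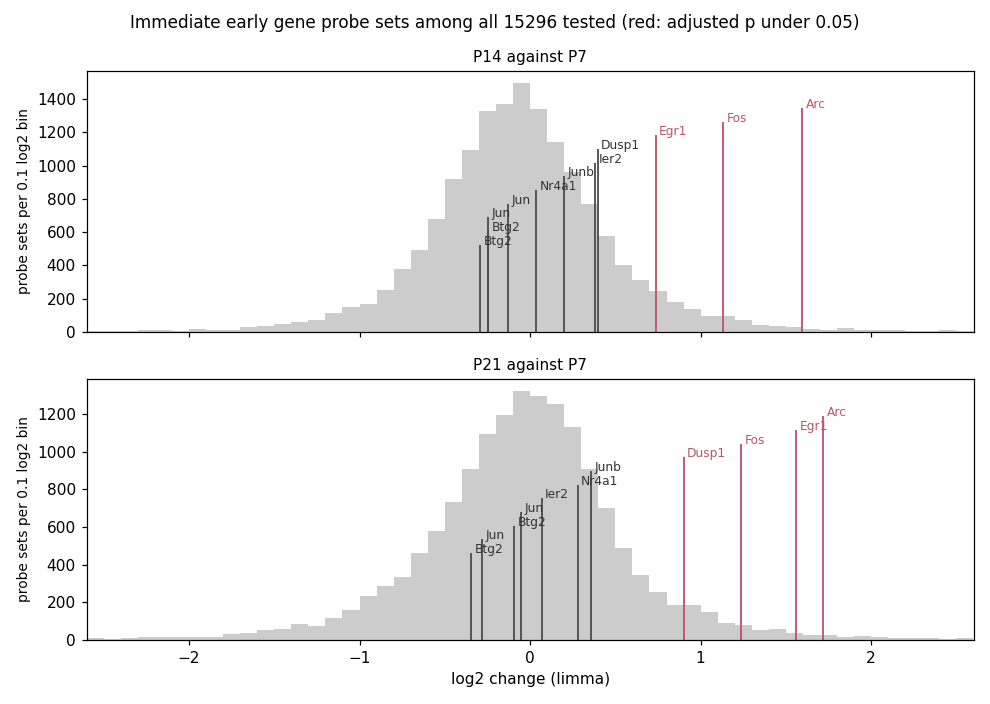
Distribution of the log2 change (horizontal axis) of all 15296 probe sets tested, as counts per bin of 0.1 (vertical axis), from P7 to P14 and from P7 to P21, with the 11 tested members as labelled lines whose height has no meaning. Arc, Fos and Egr1 stand in the upper tail of both panels and Dusp1 joins them at P21, while the other members lie within the bulk.

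By P14 the 4 members called over the whole period had reached 91.4% (Fos), 92.9% (Arc), 47.2% (Egr1) and 44.0% (Dusp1) of their log2 change. These shares rest on 2 P14 arrays. With 1 of the 8 arrays left out they ran from 78.9% to 109.2% for Fos, 86.8% to 101.0% for Arc, 38.0% to 56.5% for Egr1 and 24.9% to 63.1% for Dusp1. The ends for Dusp1 are those without P14 replicate 2 and without P14 replicate 1. The change before P14 minus the change after it was 1.03 (SE 0.33, limma adjusted p = 0.0871) for Fos, 1.47 (SE 0.42, limma adjusted p = 0.058) for Arc, -0.09 (SE 0.27, limma adjusted p = 0.873) for Egr1 and -0.11 (SE 0.39, limma adjusted p = 0.893) for Dusp1. In limma 0 of 11 members passed this contrast, where 8.01% of probe sets did, and 3 members (Fos, Arc and Ier2) had an unadjusted p under 0.05, as did 25.9% of all probe sets. Fos passed it without P21 replicate 1 (1.23, limma adjusted p = 0.0198), Arc without P7 replicate 1 (1.25, limma adjusted p = 0.0455), and both with array quality weights (1.07 and 1.38, limma adjusted p = 0.0271 and 0.0228). The difference in course between genes was not tested.

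Arrays of 2 ages lay wholly apart for more members than passed the model, as on the array as a whole. From P7 to P21 the arrays of 4 members lay apart upward (Fos, Egr1, Arc and Dusp1) and of 1 downward (the first Jun probe set), against 22.1% and 27.4% of all probe sets. From P7 to P14 there were 4 upward (Fos, Egr1, Arc and Ier2) and 2 downward (the second probe sets of Jun and Btg2), against 24.3% and 34.6%. From P14 to P21 there were 2 upward (Egr1 and Dusp1) and 2 downward (the first Jun probe set and Ier2), against 21.3% and 16.8%. These counts are over the 11 tested members.

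The probe sets most like Fos over the 8 arrays were 1415793_at (Pearson r = 0.986 of log2 signals) and 1448121_at (r = 0.985), which the table pairs with no gene. Among the members, Arc (r = 0.886), Egr1 (r = 0.86) and Dusp1 (r = 0.857) were the most like it, and 5.35%, 7.46% and 7.63% of all probe sets had a higher r with Fos. Jun had r = -0.643 and -0.236 for its pair of probe sets. These values describe 8 arrays of 3 ages and mostly restate the change with age.

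Among the P21 arrays, most members were highest on the same array. P21 replicate 1 had the highest P21 signal for 10 of the 12 members, all but Fosb and Arc, and the lowest for 0, while it was the highest for 34.7% of all probe sets tested. Its log2 signal lay above the mean of the 3 P21 arrays by 0.41 for Fos, 0.41 for Dusp1, 0.39 for Junb, 0.33 for Nr4a1, 0.24 for Ier2 and 0.14 for Egr1. It lay above that mean by 0.41 and 0.26 for the Btg2 probe sets, and by 0.03 and 0.13 for those of Jun. Arc, at -0.04, lay slightly below it. The median deviation of the 11 tested members on this array was 0.26, against 0.0033 over all probe sets, and the medians on the other 7 arrays lay between -0.15 and 0.09. P21 replicate 3 was the lowest of its age for 7 of 12 members and 33.1% of all probe sets. At P7, replicate 2 was the highest for 6 members (28.9% of all probe sets) and replicate 1 for 5 (41.8%), the latter near its background. P21 replicate 1 also carried the weakest poly-A control, and the part of that in these deviations was not tested.

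**Figure D4:**
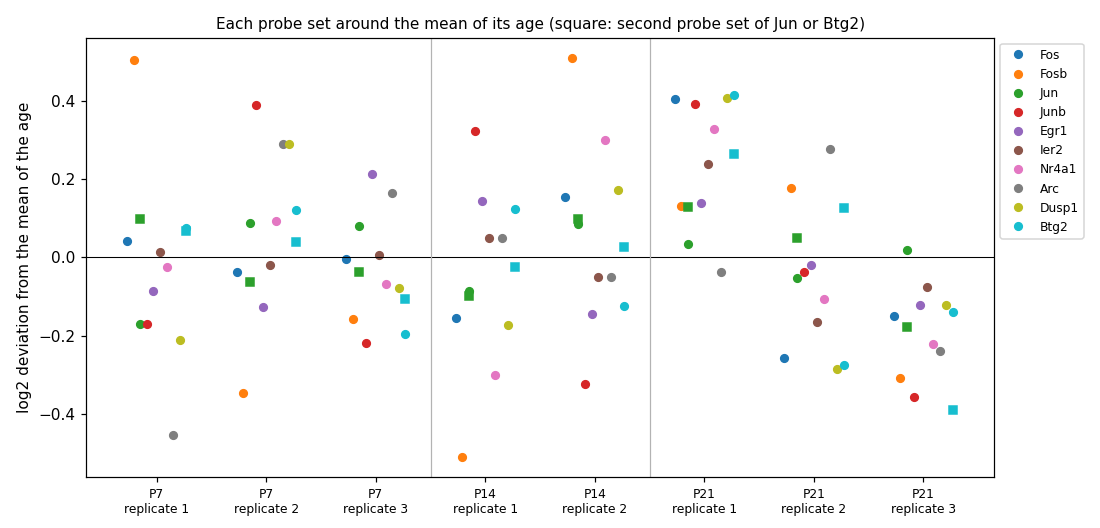
Log2 deviation of each of the 12 probe sets from the mean of its age (vertical axis) on each of the 8 arrays. On P21 replicate 1 all points but that of Arc lie above 0, whereas the other arrays have points on both sides. The P14 arrays mirror each other because the mean of those 2 arrays was subtracted.

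Without P21 replicate 1, the P7 to P21 changes were 1.04 for Fos (limma adjusted p = 0.000258), 1.49 for Egr1 (9.9e-05), 1.74 for Arc (0.000596) and 0.70 for Dusp1 (0.0126). The same 4 members thus passed upward without the array on which most members were highest. The first Btg2 probe set then passed downward, with -0.55 (limma adjusted p = 0.0187), and its adjusted p over all 18 settings ran from 0.0187 to 0.444. With a block for each array's poly-A control, which leaves P21 replicate 1 alone to stand for P21, the change of this probe set was 0.25 (limma adjusted p = 0.431). The second Btg2 probe set changed sign on leaving out another array, with 0.10 (limma adjusted p = 0.59) without P21 replicate 3 and -0.22 (limma adjusted p = 0.339) without P21 replicate 1. It was 0.22 (limma adjusted p = 0.537) with the poly-A block.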

How the data were processed

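RNA of pooled cochlear nuclei was measured on 8 oligonucleotide arrays. The deposited values are scaled intensities, with a single value for each probe set. GCOS, an array analysis program, is named without a version in the submitters' processing notes. The background correction is not stated there. The 2%-trimmed mean was 250.1 on each array, and arrays were scaled to exactly that level. After removal of 64 control probe sets, 15296 of 22690 probe sets had a mean of at least 50.02 (0.2 of the trimmed mean). The fit used log2(signal + 12.5), where 12.5 is 0.05 of the trimmed mean, in limma 3.58.1 (R 4.3.3), with lmFit and a trended eBayes, with the 3 ages as groups. Tests were two-sided. The procedure was tested on simulated data in which 200 of 15296 probe sets changed. Between ages it recovered 6% to 14% of log2 changes of 0.5, 59% to 66% of changes of 1 and 100% of changes of 2. For the difference between intervals it recovered 0%, 5% and 68% of these sizes. In the data more probe sets passed than were changed there, with 29.6% from P7 to P14, 38.6% from P7 to P21 and 8.01% for the difference between intervals. The adjusted threshold was thus less strict in these comparisons, and the simulated recovery does not carry over to them. Changes that did not pass may still have been missed. Confidence intervals are not adjusted. The number of arrays limits the precision.

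All 12 members are named, beside the probe sets with the highest correlation with Fos, cut from 5 to 2 since the table pairs them with no gene. For that reason the lists of other early response genes and of cell type markers were not run. The members and lists were chosen with earlier results of these data known. The spotted cDNA arrays of the series were not used here. Alternatives were quantile normalization, no scaling, pseudocounts of 5.00 and 50.02, no filter and a stricter one, no trend, array quality weights, the replicate number or the poly-A control as a block, and leaving out each array.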

Additional observations from a re-analysis of the deposited data

How the results depend on the processing

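Across 18 alternative settings, the P7 to P21 changes of Fos, Egr1, Arc and Dusp1 and the P7 to P14 changes of Fos and Arc passed in every one, and no call changed direction. The number of members called from P14 to P21 fell from 1 to 0 with no filter, with no trend and with a poly-A control block, and was 0 to 1 when an array was left out. For the difference between intervals it rose from 0 to 2 with array quality weights, and was 0 to 1 when an array was left out. The cause was not tested. With an array left out, 2 to 4 members were called from P7 to P14 and 4 to 5 from P7 to P21.

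Over all probe sets, the P14 to P21 count of 313 became 109 with no filter, 121 with no trend, 637 with array quality weights, 0 with the poly-A block and 0 to 465 when an array was left out. The P7 to P14 count of 4524 was 2386 to 4781 and the P7 to P21 count of 5907 was 4777 to 5682 when an array was left out, and the latter was 1938 with the poly-A block. The count of 1225 for the difference between intervals became 793, 2204 and 68 with no trend, array quality weights and the poly-A block, and 53 to 1181 when an array was left out. With a lone P14 array, that array is assumed to vary like the other ages.

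Same-numbered P7 and P21 arrays deviated together at r = 0.281, -0.0154 and 0.13 across probe sets, so the numbers were not taken as pairs, and P7 replicate 2 correlated better with P21 replicate 3 (0.215). With the replicate block the members called were 3, 1, 4 and 0 for P7 to P14, P14 to P21, P7 to P21 and the difference between intervals, as without it. Dim probe sets, Fosb and Junb here, are limited by their signal over background. So is Arc at P7, with a mean signal of 53.8 against 48.6 for Junb at that age.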
